A study of Mus musculus with 12 samples.

Results

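The Akr1c genes and Asb13 are 7 of the 26061 genes in the deposited expression table. They are Akr1c12, Akr1c13, Akr1c18, Akr1c21, Akr1c14 and Akr1c6, which belong to the aldo-keto reductase cluster of mouse chromosome 13, and Asb13, which lies beside that cluster. They were chosen by name, and because several of them were much higher after knockdown of Setdb1. Their knockdown changes are therefore given as a description, with no test.

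The libraries came from E14 cells, a mouse embryonic stem cell line of 129/Ola background, kept feeder-free on gelatin. Each group had 3 libraries. In the 2i shSetdb1 group, cells in 2i medium, labelled naive, carried a pLKO.1 lentivirus with an shRNA against Setdb1. In the 2i shScr group, cells in the same medium carried a scrambled shRNA. In the serum shSetdb1 group, cells in fetal bovine serum with LIF, labelled primed, carried the shRNA against Setdb1, and in the serum shScr group they carried the scrambled one. The base of the 2i medium was supplemented with LIF, N2 and B27, and with PD0325901, an inhibitor of the kinase MEK, and CHIR99021, an inhibitor of the kinase GSK3. All 4 groups were put under 1 µg/ml puromycin at 48 hours after infection and harvested 3 days later. RNA was freed of ribosomal RNA and sequenced with strand-specific libraries. No group had Setdb1 put back or a differently labelled shRNA against it, so an effect of losing SETDB1 and another effect of this shRNA cannot be told apart. The labels do not say that replicates came from separate cultures, so every error and p-value here covers only the spread among libraries, which may be technical.

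Aldo-keto reductases of the Akr1c family use NADH or NADPH to reduce or oxidise steroids, prostaglandins and other carbonyl compounds. In the mouse the family forms a tandem array in which the copies are used in different organs, such as liver, kidney, ovary and stomach. SETDB1 methylates lysine 9 of histone H3 and is known in embryonic stem cells for silencing endogenous retroviruses and a set of genes near them.

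Values are given as normalised reads, which are the reads recovered from the deposited values, scaled by each library's size factor. Log2 changes are differences of mean deposited values, and that scale understates the change of genes with few reads. Libraries held 4821181 to 15509401 gene reads. The smallest was replicate 3 of the 2i shSetdb1 group, which also had 1.55 repeat reads per gene read, against 0.284 to 0.872 in the other 11. Setdb1 itself fell in both media. It had 837, 610.2 and 340.1 normalised reads in 2i shSetdb1 libraries, against 3607, 2724 and 2253 in 2i shScr libraries (log2 change -2.24, SE 0.33, limma adjusted p = 0.00173). In serum it had 418, 379 and 409 in shSetdb1 libraries, against 2959, 2237 and 1587 in shScr libraries (log2 change -2.33, SE 0.33, limma adjusted p = 0.00219). All 8 pluripotent stem cell markers searched, Pou5f1, Nanog and Sox2 among them, had reads in every group. Summed fibroblast markers, 8 of 8 in the table, ranged from 164 to 799 normalised reads in 2i shSetdb1 libraries with none at 0, against 30.3 to 72.8 in 2i shScr libraries with Col3a1 and Dcn at 0. In serum these sums were 85.3 to 119 in shSetdb1 libraries with Col3a1, Dcn and Postn at 0, against 68.4 to 166 in shScr libraries, with Lum at 0 as well. Of the 3 fibroblast markers tested, Lum rose in 2i at a limma adjusted p under 0.05. Summed markers of endoderm ranged from 5.53 to 101 in 2i shSetdb1 libraries and from 52.7 to 77.9 in 2i shScr libraries, and those of trophoblast from 111 to 724 in 2i shSetdb1 libraries and from 96.8 to 144 in 2i shScr libraries. In serum the endoderm sums were 66.2 to 146 in shSetdb1 and 124 to 164 in shScr libraries, and the trophoblast sums 129 to 221 in shSetdb1 and 134 to 257 in shScr libraries. Among endoderm markers Sox7, Afp, Apoa1 and Ttr were at 0 in 2i shSetdb1 libraries, and Sox17, Apoa1 and Ttr in 2i shScr libraries. Afp and Ttr were at 0 in serum shSetdb1 libraries, and Afp, Apoa1 and Ttr in serum shScr libraries. Among trophoblast markers Elf5 was at 0 in all 4 groups. Hand1 was also at 0 in 2i shScr, Gata3 in serum shSetdb1 and Cdx2 in serum shScr libraries. The part of these markers, and of the depth of replicate 3, in the values below was not tested. In such bulk RNA, more cells using a gene and more RNA per cell cannot be told apart.

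Akr1c12 and Akr1c13 encode closely related NAD-dependent hydroxysteroid and alcohol dehydrogenases. Both were close to silent with the scrambled shRNA and were higher after knockdown in both media, far more so in 2i. Their GENCODE transcripts are 94.6% identical over 1260 aligned bases, and 347 of the 1212 stretches of 50 bases in the Akr1c12 transcript (28.6%) also stand in Akr1c13. The way in which shared reads were counted is not given in the sources used here, so the split of reads between this pair is uncertain. The other 14 pairs among the 6 Akr1c transcripts are 69.4 to 76.3% identical and share 0 such stretches. The 250 bases before the start sites of the pair (RefSeq, build GRCm38.p6, each read along its own strand) are shown because the likeness extends upstream, where capitals mark bases that differ or have no partner in the other gene.
Akr1c12, chr13:4279400-4279649, minus strand: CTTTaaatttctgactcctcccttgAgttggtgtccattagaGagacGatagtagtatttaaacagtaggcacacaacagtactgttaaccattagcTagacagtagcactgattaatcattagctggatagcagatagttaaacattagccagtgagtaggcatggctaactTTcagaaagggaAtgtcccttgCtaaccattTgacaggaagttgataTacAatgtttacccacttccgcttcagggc
Akr1c13, chr13:4190937-4191186, plus strand: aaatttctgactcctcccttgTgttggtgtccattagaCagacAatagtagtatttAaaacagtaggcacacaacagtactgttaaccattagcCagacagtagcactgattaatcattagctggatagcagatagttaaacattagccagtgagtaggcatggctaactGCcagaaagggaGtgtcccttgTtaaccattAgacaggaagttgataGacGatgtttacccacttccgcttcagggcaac

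Over promoters of 300 bases, of which 50 lie after the start, this pair is 95.9% identical across 296 aligned bases, with 12 differing bases. The other 14 pairs of Akr1c promoters are 57.9 to 66.0% identical. Where these RNAs start in the cells was not measured.

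Akr1c13 had 742, 1191 and 2873 normalised reads in 2i shSetdb1 libraries (replicates 1, 2 and 3), against 9.39, 30.3 and 0 in 2i shScr libraries. The serum values were 163, 248 and 141 in shSetdb1 libraries, against 9.77, 28.4 and 0 in shScr libraries. In each medium the lowest knockdown library stood above the highest control, and every 2i knockdown library stood above every serum one. The means were 1602 ± 1124 in 2i shSetdb1 and 13.2 ± 15.5 in 2i shScr cells (SD, n = 3 each), which is 121-fold. They were 184 ± 56.3 in serum shSetdb1 and 12.7 ± 14.4 in serum shScr cells (SD, n = 3 each), which is 14.4-fold. On the deposited scale the log2 changes were 5.17 in 2i and 2.50 in serum (SE 0.52 each). The size of the folds rests on single libraries. That in 2i was 73.0 without replicate 3 of the shSetdb1 group and 341 without replicate 2 of the shScr group, and that in serum was 37.6 without replicate 2 of the shScr group.

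Akr1c12 showed the same pattern with fewer reads. It had 178, 318 and 561 normalised reads in 2i shSetdb1 libraries, against 2.17, 16.6 and 0 in 2i shScr libraries. Serum libraries gave 28.9, 40.4 and 12.5 in shSetdb1 libraries, against 3.26, 9.77 and 0 in shScr libraries. The groups were apart in both media, in serum by only 12.5 against 9.77. The means were 352 ± 194 in 2i shSetdb1 and 6.24 ± 9.0 in 2i shScr cells (SD, n = 3 each; 56.5-fold), with a log2 change of 3.49 (SE 0.43). They were 27.3 ± 14.1 in serum shSetdb1 and 4.34 ± 4.98 in serum shScr cells (SD, n = 3 each; 6.28-fold), with a log2 change of 0.99 (SE 0.43). Without replicate 2 of the shScr group, that group held 3 reads in either medium, and the ratios became 210.4 in 2i (95% counting interval 71.7 to 1022) and 17.3 in serum (5.74 to 85.2). Such intervals cover counting error only.

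The share that Akr1c12 took of the reads of the pair was 19.3, 21.1 and 16.3% in 2i shSetdb1 libraries, with exact 95% binomial intervals of 17.1 to 21.7, 19.0 to 23.2 and 14.3 to 18.5. It was 15.1, 14.0 and 8.12% in serum shSetdb1 libraries, with intervals of 10.9 to 20.1, 10.5 to 18.2 and 4.40 to 13.5. Akr1c13 thus held most of the reads of the pair in all 6 knockdown libraries, and the 3 shares in 2i stood above the 3 in serum. The interval of serum replicate 3 overlapped none of those in 2i, whereas those of serum replicates 1 and 2 each overlapped at least 2 of them.

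Akr1c18 encodes the hydroxysteroid dehydrogenase that inactivates progesterone in the mouse ovary. It had reads in all 3 of the 2i controls, and after knockdown it was far higher in 2i than in serum. It had 236, 246 and 1344 normalised reads in 2i shSetdb1 libraries, against 44.1, 20.0 and 22.3 in 2i shScr libraries. In serum the values were 8.37, 42.1 and 16.3 in shSetdb1 libraries, against 0, 12.4 and 0 in shScr libraries. The 2i groups were apart, with replicate 3 of the knockdown far above the other two, whereas the serum groups overlapped.

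For Akr1c18 the means were 609 ± 637 in 2i shSetdb1 and 28.8 ± 13.3 in 2i shScr cells (SD, n = 3 each; 21.1-fold), with a log2 change of 2.91 (SE 0.54). Without replicate 3 of the 2i shSetdb1 group the fold was 8.37. The serum means were 22.3 ± 17.6 in shSetdb1 and 4.15 ± 7.18 in shScr cells (SD, n = 3 each; 5.37-fold), with a log2 change of 0.96 (SE 0.54). That fold was 2.97 without replicate 2 of the serum shSetdb1 group, and at least 13.8 without replicate 2 of the serum shScr group, since the other 2 controls had no read. A bound of this kind sets the knockdown mean against 3 reads over the control group.

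Akr1c21 encodes a hydroxysteroid dehydrogenase of mouse kidney that makes epitestosterone. It was nearly silent in the controls and high after knockdown, at levels that overlapped between serum and 2i. Its promoter (RefSeq, GRCm38.p6) is shown for comparison with those of the pair, and capitals mark the one motif found in its 300 bases, an E-box (CACGTG) that begins 41 bases before the start.
Akr1c21, chr13:4573825-4574074, plus strand: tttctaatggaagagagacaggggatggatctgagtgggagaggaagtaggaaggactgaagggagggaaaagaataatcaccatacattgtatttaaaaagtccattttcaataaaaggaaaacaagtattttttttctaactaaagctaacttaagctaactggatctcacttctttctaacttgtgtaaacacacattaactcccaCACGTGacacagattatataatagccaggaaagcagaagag

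Akr1c21 had 436, 411 and 1186 normalised reads in 2i shSetdb1 libraries, against 0.722, 1.38 and 0 in 2i shScr libraries. In serum it had 265, 324 and 516 in shSetdb1 libraries, against 0, 9.77 and 0 in shScr libraries. All 6 knockdown libraries were far above all 6 controls, and replicate 3 was the highest in both media. The means were 678 ± 441 in 2i shSetdb1 and 0.700 ± 0.690 in 2i shScr cells (SD, n = 3 each). Since the 2i controls held 3 reads in all, the ratio of 650.3 carries a 95% counting interval of 222 to 3157, and without replicate 2 of the shScr group it was 1184 (212 to 46780.5). The serum means were 368 ± 131 in shSetdb1 and 3.26 ± 5.64 in shScr cells (SD, n = 3 each; 113-fold). Replicate 2 held every read of the serum controls, and without it the fold was at least 228. On the deposited scale the log2 changes were 4.67 in 2i and 3.87 in serum (SE 0.42 each).

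Akr1c14 and Akr1c6 stayed low. Akr1c14 encodes a hydroxysteroid dehydrogenase that acts on dihydrotestosterone, and Akr1c6 a liver enzyme that makes testosterone. Akr1c14 had 72.2, 2.03 and 0 normalised reads in 2i shSetdb1 libraries, against 1.44, 1.38 and 0 in 2i shScr libraries. Serum values were 12.2, 0 and 21.1 in shSetdb1 libraries, against 0, 4.44 and 10.7 in shScr libraries. The groups overlapped in both media, and its 26.3-fold ratio of means in 2i was 1.08 without replicate 1 of the shSetdb1 group. In serum the ratio was 2.20, which was 1.21 without replicate 3 of the shSetdb1 group and 4.99 without replicate 3 of the shScr group. The log2 changes were 0.69 in 2i and 0.26 in serum (SE 0.52 each). Akr1c6 had 4 reads in all, in replicate 2 of the 2i shSetdb1 group, and 0 in the other 11 libraries. It was the 1 member below the filter on low values, a mean of at least 0.5 above the lowest deposited value, which kept 14487 genes.

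Asb13 encodes an ankyrin-repeat protein with a SOCS box, a kind of protein that brings substrates to cullin 5 ubiquitin ligases. It is no reductase, and 5 genes with a row in the table lie between it and Akr1c14. Its promoter (RefSeq, GRCm38.p6) is shown because it differs from those of the Akr1c genes in base composition, and capitals mark an octamer (ATGCAAAT) on the reverse strand.
Asb13, chr13:3633782-3634031, plus strand: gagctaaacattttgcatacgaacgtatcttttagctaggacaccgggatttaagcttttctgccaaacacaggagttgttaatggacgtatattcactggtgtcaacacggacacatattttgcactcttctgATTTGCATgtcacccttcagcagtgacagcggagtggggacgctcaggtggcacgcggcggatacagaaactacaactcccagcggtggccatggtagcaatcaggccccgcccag

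Asb13 had 1287, 381 and 1156 normalised reads in 2i shSetdb1 libraries, against 19.5, 29.7 and 1.17 in 2i shScr libraries. In serum it had 389, 134 and 267 in shSetdb1 libraries, against 6.51, 3.55 and 15.0 in shScr libraries. The groups were apart in both media, and replicate 2 was the lowest knockdown library in each. The means were 941 ± 489.9 in 2i shSetdb1 and 16.8 ± 14.4 in 2i shScr cells (SD, n = 3 each; 56.1-fold), with a log2 change of 4.24 (SE 0.48). They were 263 ± 128 in serum shSetdb1 and 8.35 ± 5.92 in serum shScr cells (SD, n = 3 each; 31.5-fold), with a log2 change of 2.87 (SE 0.48). The fold in 2i was 91.1 without replicate 2 of the shScr group, and that in serum 52.3 without replicate 3 of the shScr group.

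**Figure D1:**
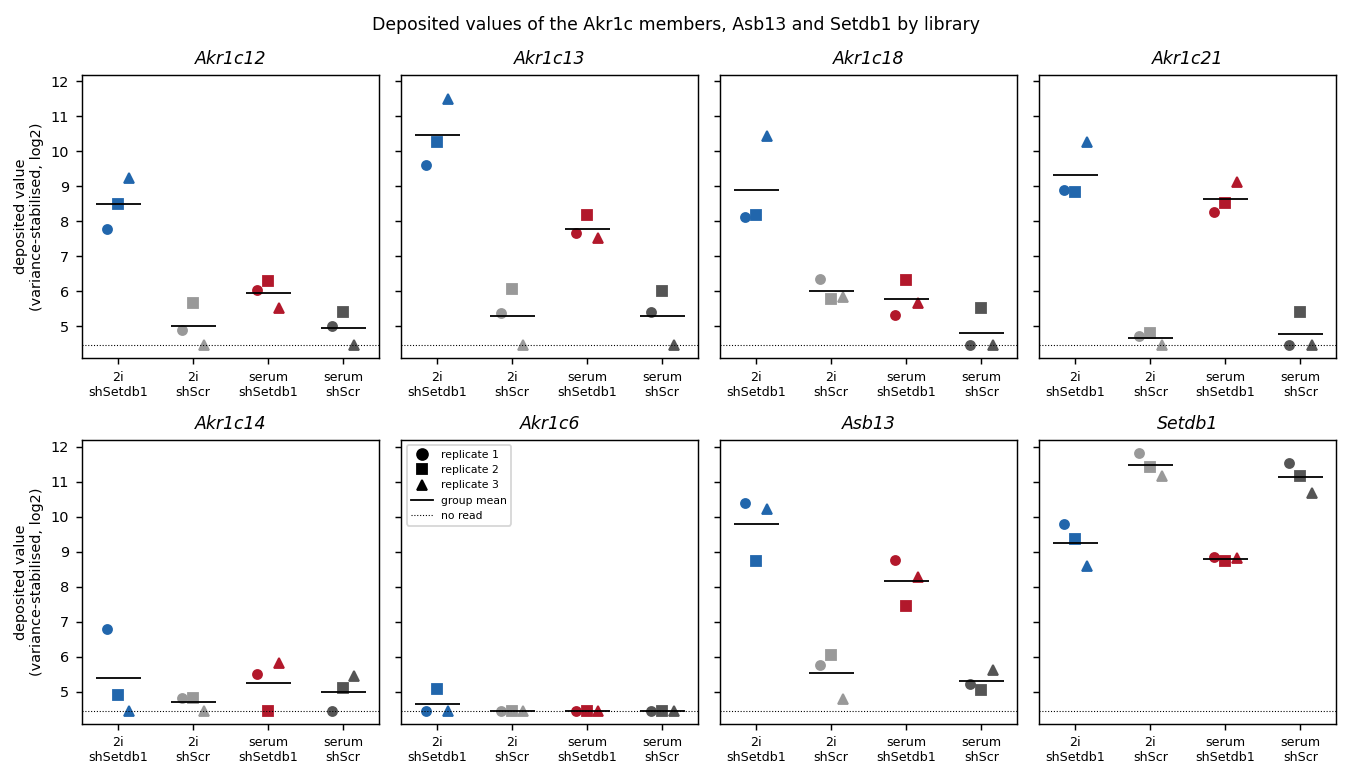
Deposited values (vertical axes, variance-stabilised log2 scale) of the 7 genes and Setdb1 in the 12 libraries, grouped on the horizontal axes. Symbols mark replicates 1 to 3, lines the group means, and the dotted line the value of a gene with no read. Akr1c12, Akr1c13 and Akr1c18 stand higher in the 2i shSetdb1 group than in the serum shSetdb1 group without overlap, whereas Akr1c21 overlaps between them.

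Counted together, 5 of the 7 genes in 2i had every shSetdb1 library above every shScr library, against 6.33% of the genes tested. In serum 4 of the 7 were apart in this way, against 6.12%. Because these changes chose the genes, the counts describe them and test nothing. Over all genes 184 (1.27%) passed at a limma adjusted p under 0.05 in 2i and 94 (0.649%) in serum. Serum libraries of the same number deviated together, and a block for that number raised the serum count to 171 genes (1.18%) over all libraries and to 211 (1.46%) within each medium. In 2i these blocks gave 321 (2.22%) and 425 (2.93%). The SEs and adjusted p-values given here come from the fit without a block.

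The order of these genes on chromosome 13 was taken from the GRCm38 annotation, since the deposited values were made on mm9, and 16 of the 28 annotated features from Gdi2 to Akr1e1 have a row in the table. Genes with large differences were not all adjacent. From Gdi2 the order is Asb13, Calml3, Calm4, Net1, Tubal3, Ucn3, Akr1c14, Akr1c18, Akr1c13, Akr1c19, Akr1c12, Akr1c6, Akr1c20, Akr1c21 and Akr1e1. The row BC016423 stands between Gdi2 and Asb13 in the deposited table. It was not matched to a position and is left out of this order. Its log2 changes were 3.25 in 2i and 1.86 in serum (SE 0.54 each), and only that in 2i passed. Between Asb13 and the reductases, Calml3, Tubal3 and Ucn3 had no read in any library, and Calm4 had 2 reads, both in serum shScr libraries. Net1 averaged 669.8 normalised reads in 2i shSetdb1 and 907 in 2i shScr cells (log2 change -0.48, SE 0.33, limma adjusted p = 0.846). In serum it averaged 622 in shSetdb1 and 455 in shScr cells (log2 change 0.38, SE 0.33, limma adjusted p = 1.00). Gdi2, on the other side of Asb13, had log2 changes of 0.23 in 2i and 0.36 in serum (SE 0.29 each), and neither passed. Its serum shSetdb1 libraries, at 11236 to 13049.6 normalised reads, nevertheless all stood above the serum shScr libraries at 8707 to 10149, while its groups overlapped in 2i.

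**Figure D2:**
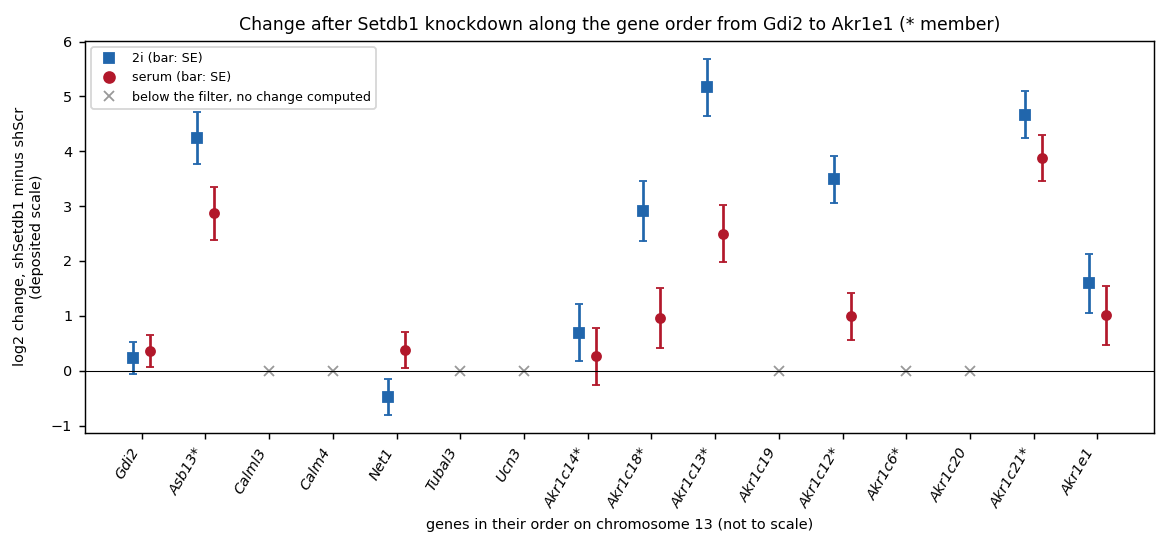
Log2 change after knockdown (vertical axis, shSetdb1 minus shScr, deposited scale) for the genes in their order along chromosome 13 (horizontal axis, not to scale), with blue squares for 2i, red circles for serum and bars for the SE. Crosses mark genes below the filter, for which no change was computed. Asb13, Akr1c13 and Akr1c21 stand out in both media with Net1 and Gdi2 near 0, and Akr1c18 and Akr1c12 stand out mainly in 2i. The row BC016423, not matched to a position, is not drawn.

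Of the 10 genes listed as flanking the cluster, 9 were in the table, 6 were tested, and 0 passed with limma in either medium, against 1.27% of all genes in 2i and 0.649% in serum. Fam208b was listed but had no row of that name. The row BC016423, which stands between Gdi2 and Asb13 in the deposited table and passed in 2i, was not on the list under that name. Whether it is a listed gene under another name was not settled. These counts leave it out, and its values are given under other observations. None of the 6 passed with voom, and 0 had an unadjusted p under 0.05. Their median log2 change was -0.29 in 2i and 0.24 in serum, beside 0.01 and -0.00 over all genes tested. Ankrd16, Pitrm1, Pfkp and Klf6, also on the list, had log2 changes between -0.44 and -0.14 in 2i and between -0.13 and 0.27 in serum. They are not in the stretch from Gdi2 to Akr1e1 and no position was taken for them, so whether each flanks the cluster is uncertain.

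The remaining genes of the array behaved unevenly. Akr1c19 had 0.769, 3.05 and 11.1 normalised reads in 2i shSetdb1 libraries, which is 8 reads in all, and no read in any other group, a mean at least 6.09-fold higher than 3 reads over the 2i shScr group. Akr1c20 had 1 read, in a 2i shSetdb1 library. Akr1e1, an anhydrofructose reductase at the far end of the array, was in use in the controls. It had 229.8, 794 and 669 normalised reads in 2i shSetdb1 libraries, against 113, 161 and 148 in 2i shScr libraries (log2 change 1.59, SE 0.54, limma adjusted p = 0.323). Its serum values were 256, 266 and 1209 in shSetdb1 libraries, against 230.1, 103 and 318 in shScr libraries (log2 change 1.01, SE 0.54, limma adjusted p = 1.00). Its groups were apart in 2i and overlapped in serum, where the 2.66-fold ratio of means was 1.20 without replicate 3 of the shSetdb1 group. Neither change passed. Akr1cl, an Akr1c-like gene on chromosome 1, had log2 changes of 0.55 in 2i and 0.36 in serum (SE 0.40 each; limma adjusted p = 0.858 and 1.00).

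The medium was also compared in cells with the scrambled shRNA, whose libraries are the baseline of the changes that chose the genes. A gene was tested if its mean over the 12 libraries lay at least 0.5 above the lowest value on the log2 scale. In shScr cells Akr1c21 averaged 0.21 above that value in 2i and 0.32 in serum, and Akr1c14 0.24 and 0.54, so these genes passed the filter only through the knockdown groups and no count over the genes is read. Akr1c18 was higher in all 3 of the 2i shScr libraries (44.1, 20.0 and 22.3 normalised reads) than in the serum shScr libraries (0, 12.4 and 0). Its ratio of means was 6.94, and at least 17.8 without replicate 2 of the serum shScr group (log2 difference 1.19, SE 0.54, limma adjusted p = 0.265). Such a separation was found in 11.0% of all genes. Akr1c12 and Akr1c13 had differences of 0.06 and 0.01 (SE 0.43 and 0.52, limma adjusted p = 0.974 and 0.997), and Asb13 had 0.24 (SE 0.48, limma adjusted p = 0.866). Akr1c21 had 3 reads in the 2i shScr group and 11 in the serum shScr group, and Akr1c14 had 4 and 15. The control groups held 3 to 109 reads of each of these genes, so a modest difference between them was not detectable at this depth.

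After knockdown the difference between the media was not equal for all genes. Akr1c12, Akr1c13 and Akr1c18 were higher in every 2i shSetdb1 library than in every serum shSetdb1 library, which held for 8.99% of the genes tested. Their ratios of means, 2i over serum, were 12.9, 8.72 and 27.3. Without replicate 3 of the 2i shSetdb1 group the ratios were 9.08, 5.26 and 10.8, and without replicate 2 of the serum shSetdb1 group that of Akr1c18 was 49.3. Akr1c21 was 1.84-fold higher in 2i, with overlapping groups, and 1.15-fold without replicate 3 of the 2i shSetdb1 group. Asb13 lay between at 3.58-fold, its lowest 2i library (381) just under its highest serum library (389). Akr1c14 overlapped, and its ratio of 2.23 was 0.0916 without replicate 1 of the 2i shSetdb1 group.

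The change in 2i minus the change in serum on the log2 scale was 2.67 for Akr1c13 (SE 0.74), 2.50 for Akr1c12 (SE 0.61) and 1.95 for Akr1c18 (SE 0.76). It was 1.38 for Asb13 (SE 0.67), 0.80 for Akr1c21 (SE 0.59) and 0.43 for Akr1c14 (SE 0.74). The differences of Akr1c21 and Akr1c14 were within 1.5 times their SE. Since the genes were chosen on changes in these libraries, no test is given for them. Among all genes tested 0 (0%) passed for this difference with limma or with voom, and 404 (2.79%) had an unadjusted p under 0.05 with limma.

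**Figure D3:**
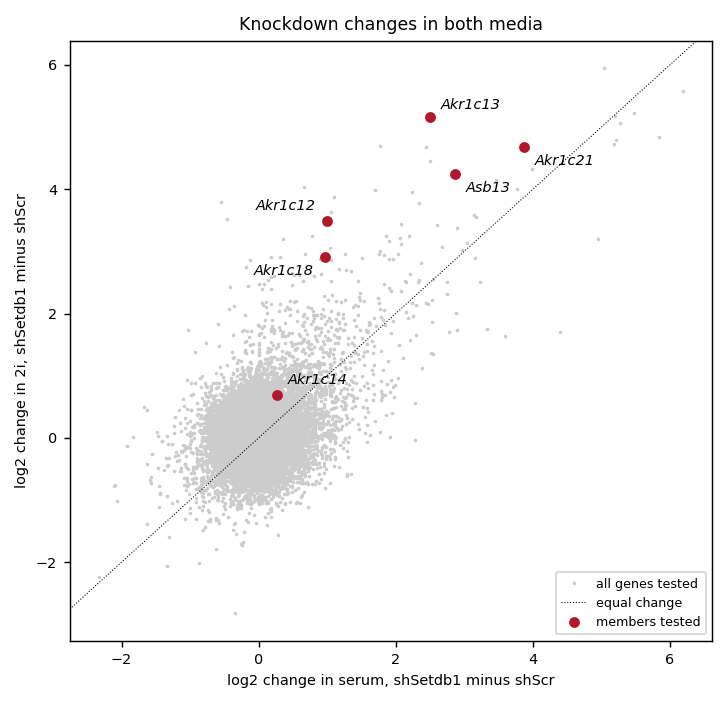
Log2 change after knockdown in 2i (vertical axis) against that in serum (horizontal axis), both on the deposited scale, for all 14487 genes tested (grey) and the 6 tested here (red), with a dotted line where the changes are equal. Of the red points, Akr1c13, Akr1c12 and Akr1c18 lie farthest above the line, and Akr1c14 lies within the cloud of all genes.

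Which reductase led differed between the media. Of the reads of the 6 Akr1c genes, Akr1c13 took 44.6, 54.8 and 48.2% in 2i shSetdb1 libraries and 34.1, 37.8 and 19.9% in serum shSetdb1 libraries. Akr1c21 took 26.2, 18.9 and 19.9% in 2i shSetdb1 libraries and 55.5, 49.5 and 73.0% in serum shSetdb1 libraries. Akr1c18 took 14.2, 11.3 and 22.5% in 2i shSetdb1 libraries and 1.75, 6.44 and 2.31% in serum shSetdb1 libraries. Akr1c13 led in all 3 of the 2i libraries and Akr1c21 in all 3 of the serum ones, and for these 3 genes the shares of the 2 media did not overlap. Shares within a library do not depend on its size factor, and the transcripts of these 3 genes are of like length, 1200 to 1262 bases. Together the 6 genes made up 156, 188 and 447 of every 1000000 gene reads in 2i shSetdb1 libraries, against 5.16, 6.95 and 1.92 in 2i shScr libraries. In serum they made up 41.7, 59.6 and 63.8 in shSetdb1 libraries, against 1.14, 5.61 and 1.01 in shScr libraries.

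**Figure D4:**
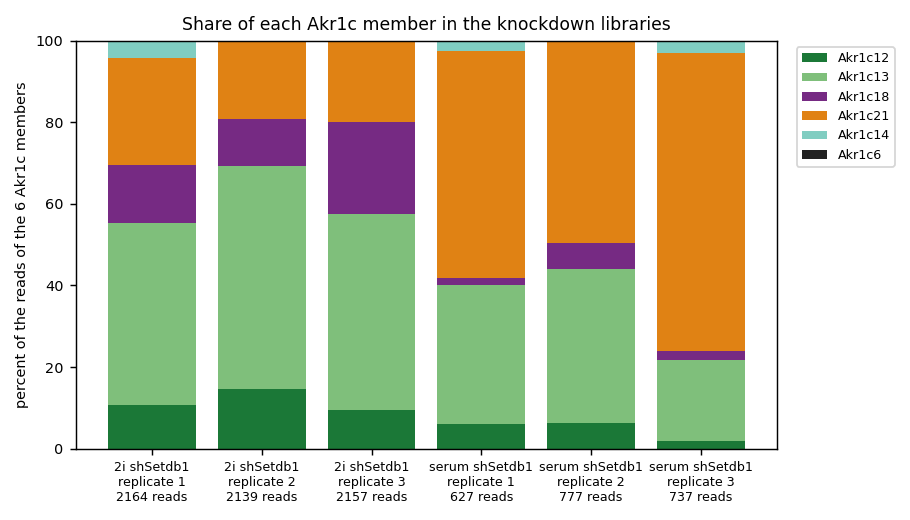
Share of each Akr1c gene (vertical axis, percent of the reads of the 6 genes) in the 3 libraries of the 2i shSetdb1 group and the 3 of the serum shSetdb1 group (horizontal axis, with the reads counted in each). Akr1c13 takes 44.6 to 54.8% in 2i and Akr1c21 takes 49.5 to 73.0% in serum.

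Per kilobase of transcript (GENCODE transcripts of GRCm38, which may not be the forms made in these cells), the order in 2i shSetdb1 cells was Akr1c13 at 1269 ± 890.3 normalised reads per kilobase, Akr1c21 at 562 ± 365, Akr1c18 at 507 ± 531, Akr1c12 at 279 ± 154, Asb13 at 211 ± 110.0, Akr1c14 at 7.78 ± 12.9 and Akr1c6 at 0.970 ± 1.68 (SD, n = 3). Neighbours from Akr1c13 down to Asb13 differed by less than the larger of their SDs. In serum shSetdb1 cells the order was Akr1c21 at 305 ± 109, Akr1c13 at 146 ± 44.6, Asb13 at 59.1 ± 28.7, Akr1c12 at 21.6 ± 11.1, Akr1c18 at 18.5 ± 14.7, Akr1c14 at 3.48 ± 3.33 and Akr1c6 at 0 (SD, n = 3). There Akr1c12 and Akr1c18 differed by less than the larger of their SDs. In 2i shScr cells the highest was Akr1c18 at 24.0 ± 11.1, and in serum shScr cells it was Akr1c13 at 10.1 ± 11.4 (SD, n = 3).

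Likeness across the 12 libraries was measured as the root mean square difference of centred deposited values, so that 0 means the same profile. Akr1c12 was most like Mndal (0.35) and Ifi204 (0.52), both PYHIN family genes on chromosome 1. Akr1c18 was most like Mndal (0.58) and AA467197 (0.62), and Akr1c13 most like Akd1 (0.62) and C130073F10Rik (0.65). Akr1c21 was most like Mmp1b (0.38), a collagenase gene on chromosome 9, and Serpina3m (0.56), a serpin gene on chromosome 12. Asb13 was most like Fcgr3 (0.69) and Mep1b (0.70), and Akr1c14 most like Bves (0.39) and Ticam1 (0.40), whose log2 changes lay between -0.13 and 0.46 in the 2 media. Akd1 had no matched location, and each of the others lies on a chromosome other than 13. Among the genes described here, Asb13 and Akr1c21 were alike at 0.80, where Akr1c21 had rank 8 among 14486 genes for Asb13. Akr1c12 and Akr1c18 were alike at 0.69 and Akr1c12 and Akr1c13 at 0.82, whereas Akr1c14 was no nearer than 1.59 to any of them. These distances follow the knockdown changes that chose the genes and are a description.

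Of the 1097 repeat families kept, those nearest to the mean profile of the 6 tested genes were IAPLTR1_Mm (0.35), IAPEz-int (0.40) and IAP-d-int (0.64), which all belong to intracisternal A particles, a family of endogenous retroviruses. IAPLTR1_Mm had 11702, 11333 and 16029 normalised reads in 2i shSetdb1 libraries, against 807, 1231 and 722 in 2i shScr libraries. In serum there were 2364, 2516 and 4179 in shSetdb1 libraries, against 1126, 999 and 1078 in shScr libraries. Like Akr1c12 and Akr1c13, this repeat stood apart between shSetdb1 libraries of the 2 media, higher in 2i. The repeat table has its own size factors, which limits this to a likeness of shape. The mean profile follows the knockdown changes that chose the genes, so families that rose after knockdown were bound to stand near it. These distances are a description, and no link between the repeats and the genes was tested.

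Of 4 lists of related genes, 1 gene passed after knockdown. Over all genes tested 1.27% passed in 2i and 0.649% in serum, so lists this short may hold 0 without differing from other genes. An unadjusted limma p under 0.05 was reached by 7.37% of all genes tested in 2i and 5.09% in serum. Of 8 other aldo-keto reductases 5 were tested and 0 passed in either medium, with medians of -0.00 in 2i and 0.33 in serum. The largest change in either medium was that of Akr1b3, an aldose reductase, at 0.54 in serum, with 0.15 in 2i (SE 0.32 each). Of 25 genes of steroid synthesis and metabolism 13 were tested and 0 passed, with medians of -0.15 in 2i and 0.11 in serum. An unadjusted limma p under 0.05 was reached by 1 of the 13 in serum and 0 in 2i, and by 0 of the 5 reductases in either medium. Cyp11a1, which cuts the side chain of cholesterol, had the largest change, 0.90 in serum (SE 0.41, limma adjusted p = 0.943). Its reads there were 14.5, 14.3 and 43.1 in shSetdb1 libraries, against 0, 0 and 24.6 in shScr libraries, so the groups overlapped.

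Of 24 targets of NRF2, the factor that induces oxidative stress enzymes, 22 were tested and 0 passed after knockdown, with medians of 0.05 in 2i and -0.07 in serum. An unadjusted limma p under 0.05 was reached by 2 of the 22 in each medium. Nqo1, a quinone reductase, had the largest change, -0.98 in serum (SE 0.38, limma adjusted p = 0.720). Its serum shSetdb1 libraries, at 75.8 to 274 normalised reads, all stood below the serum shScr libraries at 292 to 489. A separation in either direction was found in 9.71% of all genes tested in serum. In 2i the Nqo1 groups overlapped. Between media in cells with the scrambled shRNA, 4 of the 22 passed as higher in 2i, namely Nqo1, Me1, Gstm1 and Cbr3, against 1.73% of all genes tested, and 0 as lower. Their log2 differences were 1.33 to 1.66, and the median over the list was 0.68, beside -0.05 over all genes tested. Each of the 4 did not pass in 4 or 5 of the 12 fits that left out 1 library, in every case a shScr library. Of 17 other Asb genes 7 were tested. Asb12 rose in serum, with 19.8, 146 and 55.6 normalised reads in shSetdb1 libraries, against 6.51, 0 and 0 in shScr libraries (log2 change 1.92, SE 0.41, limma adjusted p = 0.0441). Asb12 did not pass with voom. It also did not pass in 9 of the 12 fits that left out 1 library, which were all but those without replicate 1 of the serum shSetdb1 group, or replicate 1 or 3 of the 2i shSetdb1 group. The other 6 did not pass in serum, and 0 of the 7 passed in 2i. Asb8 was higher in 2i in cells with the scrambled shRNA, with a mean of 429 normalised reads in 2i shScr libraries, against 108 in serum shScr libraries (log2 difference 1.65, SE 0.29, limma adjusted p = 0.00619). The lists were written with earlier results of these data known.

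The promoters of all 7 genes were found in the RefSeq table. Those of the Akr1c genes held few CpG dinucleotides, 2 in Akr1c12, 2 in Akr1c13, 5 in Akr1c18, 1 in Akr1c21, 2 in Akr1c14 and 0 in Akr1c6, against a median of 7 over 32851 promoters of 300 bases. That of Asb13 held 17. Their GC content ran from 36.0% in Akr1c6 to 43.7% in Akr1c13 and was 53.7% in Asb13, beside a median of 52.7%. Every Akr1c promoter here lay below the median CpG count, that of Akr1c18 the least so, and that of Asb13 lay above it. Any part of CpG content in the knockdown changes was not tested. Motifs were searched on both strands and none overlapped another. CACGTG stood in Akr1c21 alone and in 7.15% of all promoters, and ATGCAAAT in Asb13 alone and in 1.74% of all. CCAAT stood in Akr1c14 and Akr1c6 and in 37.4% of all, and TATAAA in Akr1c6 and in 13.6%. TGACNNNGC, the core of the antioxidant response element, stood in 0 of the 7 and in 12.4% of all. No motif searched was found in Akr1c12, Akr1c13 or Akr1c18. A match describes letters in this window and not a bound factor.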

How the data were processed

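Gene and repeat expression was measured by RNA sequencing in 12 libraries, 3 in each of 4 groups taken from the labels. The authors deposited variance-stabilised log2 values, 1 table of 26061 genes and 1 of 1217 repeat families. Build mm9, DESeq2, TopHat2 2.0.9 and Trim Galore 0.3.3 appear in the submitters' processing notes. How reads were counted, on which annotation and whether by strand, is not given in the sources used here, so overlapping and antisense genes are uncertain.

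The transformation was inverted from the lowest value of each table (4.4522 for genes), and 100.0% of values came out within 0.01 of a whole read. Reads divided by size factors gave normalised reads, folds and depth. Tests used limma 3.58.1 in R 4.3.3 on the deposited values, with 1 mean per group over 12 libraries, a mean-variance trend and 8 residual degrees of freedom. Genes with a mean at least 0.5 above the lowest value were kept. A gene passed at a two-sided Benjamini-Hochberg adjusted p under 0.05 over all 14487 kept genes. The scripts were tested on simulated data.

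Replicate numbers stand in the labels. Deviations of same-numbered shSetdb1 and shScr libraries correlated at 0.58, 0.23 and 0.51 in serum. In 2i they correlated at 0.46, 0.06 and 0.52, and between the media in shScr cells at 0.23, -0.18 and 0.22. The numbers may thus pair libraries in serum, and in part in 2i. The main fit had no block for the number, so every SE and adjusted p given here is unpaired. Blocks were run only as alternatives. The alternatives were other filters, scalings, pairings and inputs, and leaving out each library. The members and gene lists were chosen with earlier results of these data known. Genes named are the 7 members, the rest of the array and its flanks, list genes that passed after knockdown or else the largest change in a list, and the nearest 2 genes and 3 repeat families by profile. Promoters and transcripts come from RefSeq and GENCODE tables of GRCm38, and no gene coordinates are converted between builds. The motifs searched were chosen by hand.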

Additional observations from a re-analysis of the deposited data

How the results depend on the processing

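The genes themselves kept their direction in 2i and serum under all alternatives run, except Akr1c14. Its log2 change was -0.02 in serum without replicate 3 of the shSetdb1 group, -0.01 in serum without replicate 1 of the shScr group, and -0.02 in 2i without replicate 1 of the shSetdb1 group. Leaving out other libraries gave up to 1.15 in 2i and 0.66 in serum for the same gene. The voom fit on recovered reads gave larger log2 changes than the deposited scale for genes with few control reads, such as 9.05 in 2i and 7.92 in serum for Akr1c21.

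Counts over all genes moved more. With no filter 104 genes passed in 2i, 55 in serum and 143 between media in shScr cells, against 184, 94 and 524. In 2i 108 passed with voom and 88 with only its 6 libraries. With the replicate number as a block over all libraries 321 passed in 2i, 171 in serum and 1351 between media. With the block within medium 425 passed in 2i and 211 in serum, and this block could not be fitted between media. Leaving out 1 library gave 99 to 253 in 2i, 37 to 116 in serum and 171 to 773 between media. The cause was not tested. Few control reads limit every fold given here, and the pair Akr1c12 and Akr1c13 shares reads to an unknown extent.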

Other observations

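The row BC016423, chosen after its values were seen, stands between Gdi2 and Asb13 in the deposited table. It was not matched to a position or to another gene name. The counts of flanking genes above leave it out. It had 8782, 3732 and 4048 normalised reads in 2i shSetdb1 libraries, against 577, 859 and 239 in 2i shScr libraries. Its groups were apart and it passed, at 9.89-fold (log2 change 3.25, SE 0.54, limma adjusted p = 0.00441). In serum it had 10379, 5611 and 3303 in shSetdb1 libraries, against 2390.3, 2132 and 729 in shScr libraries, which also did not overlap but did not pass (log2 change 1.86, SE 0.54, limma adjusted p = 0.255). Replicate 1 was its highest knockdown library in both media, as for Asb13. Unlike Asb13, it was well above 0 in the controls.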
